A study of Mus musculus with 3 samples.

Results

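Retinoid binding and visual cycle genes were examined in the choroid plexus epithelium (CPE), the cell layer that makes cerebrospinal fluid, against a common RNA of the retinal pigment epithelium (RPE) and choroid. The genes were *Rpe65*, *Lrat*, *Rgr*, *Rlbp1*, *Rdh5*, *Rdh10*, *Stra6*, *Rbp4* and *Crabp2*, 9 of the 16532 genes with a RefSeq name on the array. Every probe that the array files give one of these symbols was taken, which gave 11 of 41168 probes, with 2 probes each for *Lrat* and *Rdh10*. Of the 9 genes, 6 were lower in CPE than in the reference by at least 2-fold, 1 (*Stra6*) was higher, and 2 (*Rbp4* and *Crabp2*) did not pass the threshold. Of all tested probes on the array, 10.2% were lower and 7.09% higher by the same threshold. The call of *Stra6* was lost without mouse 1, and that of *Rdh5* with another normalization. *Rpe65* lay furthest below the reference, 105-fold lower in CPE.

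The visual cycle regenerates the light-sensitive chromophore of the photoreceptors. In RPE cells, all-trans retinol is esterified by LRAT, the ester is converted to 11-cis retinol by the isomerohydrolase RPE65, and 11-cis retinol is oxidised to 11-cis retinal by retinol dehydrogenases such as RDH5. CRALBP, the product of *Rlbp1*, holds 11-cis retinoids in RPE and in Müller glia of the retina, and RGR is an opsin of the RPE and Müller glia. Retinol reaches cells in the blood on RBP4, for which STRA6 is a membrane receptor, and the choroid plexus is known for its synthesis of transthyretin, the partner of RBP4 in plasma. RDH10 oxidises retinol to retinal in the synthesis of retinoic acid, and CRABP2 carries retinoic acid in the cell.

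The CPE samples came from 3 healthy adult C57BL/6 mice with no treatment, 1 mouse per array and 1 array per slide. CPE cells were laser dissected from brain cryosections of 20 µm, and their mRNA was amplified and labelled with the red dye Cy5. The reference, RPE/choroid RNA of the same strain, was labelled with the green dye Cy3 throughout, so a preference of a probe for 1 dye stays in its ratio, and the reference was 1 RNA whose own spread between animals is not measured. The RNA was from bulk tissue, in which fewer cells of a type and less RNA per cell cannot be told apart.

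The dissected tissue carried the markers of its label. Of 11 CPE markers tested, 10 were higher in CPE, with a median log2 ratio of 3.14 over the list, and *Otx2*, which is also a gene of the RPE, had a ratio of 0.14. Of 12 markers of RPE and melanocyte pigment cells, 9 were lower, with a median of −2.53 and summed signals of 32675 to 42208 in CPE against 557802 to 816956 in the reference. The rest, *Best1* (0.46), *Mitf* (0.44) and *Oca2* (−0.71), did not pass the threshold. *Tyr* was not well above background in CPE on any array. All 9 photoreceptor markers tested were lower, with a median of −4.85, and their summed signals were 16658 to 20337 in CPE and 546479 to 775582 in the reference, so photoreceptor transcripts were bright in the RPE/choroid RNA. *Pde6a* was not well above background in CPE on any array. Of 8 markers of Müller glia and astrocytes, 5 were lower, and their summed signals were 79184 to 100590 in CPE and 269780 to 347302 in the reference. The part of retinal transcripts in the reference level of a gene such as *Rlbp1* was not tested. Of 6 endothelial markers 0 passed the threshold, with a median of 0.09. Their summed signals were 30764 to 39560 in CPE and 30112 to 34742 in the reference. Of 6 markers of choroid stroma and fibroblasts 5 were lower, and of 6 macrophage markers 3. Their summed signals in CPE were still 55650 to 89482 and 20748 to 31135. The share of other cells in the CPE samples was not tested. The CPE channel of mouse 3 had a brighter floor than the others, with a median signal of negative control spots of 357 against 77.5 and 78.1 on the arrays of mouse 1 and mouse 2, and 314 such spots per array. The reference channel of that array was brighter at the floor too, with a median of 229 against 108 and 105.

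Promoter sequences of the genes are shown first, for the 3 RPE genes in which a searched motif was found and for *Lrat*, which was also far lower in CPE and in which none was. Each is the 250 bases before the start of the gene on the coding strand, 5′ to 3′, from RefSeq on mouse build GRCm38.p6. Capitals mark TAATCC, letters bound by homeodomain factors of the OTX and CRX family, and CATGTG, an E-box form bound by the pigment cell factor MITF. A motif on the other strand shows as GGATTA in place of the first, or as CACATG in place of the latter. *Rpe65* lies at chr3:159598931-159599180 on the plus strand, *Rgr* at chr14:37049015-37049264, *Rlbp1* at chr7:79387028-79387277 and *Lrat* at chr3:82903975-82904224 on the minus strand.
Rpe65: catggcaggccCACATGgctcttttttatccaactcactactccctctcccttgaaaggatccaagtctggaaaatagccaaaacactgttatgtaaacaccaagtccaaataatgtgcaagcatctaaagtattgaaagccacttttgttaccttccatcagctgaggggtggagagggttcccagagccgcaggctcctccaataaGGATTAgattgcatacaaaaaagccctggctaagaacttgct
Rgr: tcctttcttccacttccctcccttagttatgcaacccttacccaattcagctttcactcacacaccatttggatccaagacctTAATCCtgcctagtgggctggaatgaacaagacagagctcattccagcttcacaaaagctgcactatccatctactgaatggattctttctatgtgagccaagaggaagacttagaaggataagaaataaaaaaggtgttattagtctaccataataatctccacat
Rlbp1: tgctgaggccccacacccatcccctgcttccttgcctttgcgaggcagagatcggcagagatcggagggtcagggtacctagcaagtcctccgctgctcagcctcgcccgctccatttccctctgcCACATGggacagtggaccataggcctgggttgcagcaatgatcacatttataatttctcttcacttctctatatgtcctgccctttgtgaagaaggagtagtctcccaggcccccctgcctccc
Lrat: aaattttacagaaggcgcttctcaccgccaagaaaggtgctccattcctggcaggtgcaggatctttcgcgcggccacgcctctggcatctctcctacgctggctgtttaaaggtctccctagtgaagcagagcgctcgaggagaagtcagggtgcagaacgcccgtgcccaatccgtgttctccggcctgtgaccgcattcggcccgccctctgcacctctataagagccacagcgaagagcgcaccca
TAATCC was found in *Rgr*, beginning 167 bases before the start, and in *Rpe65*, on the minus strand and beginning 42 bases before it. CATGTG was found on the minus strand in *Rlbp1*, at 124 bases, and in *Rpe65*, at 239 bases. Of the 11 promoters listed for 7 of the genes, 2 held TAATCC and 2 held CATGTG. The promoter of *Rdh5*, also lower in CPE, held neither. Of 32851 mouse promoters of the same length, 6.25% held TAATCC and 12.3% held CATGTG. The palindromic E-box CACGTG and the letters AGGTCA, bound by retinoic acid receptors, were found in 0 of the 11 promoters listed for 7 of the genes, against 6.02% and 14.0% of all promoters. *Rdh10* and *Crabp2* were not among the matched genes. These are matches of letters and not measurements of binding.

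Each ratio below is the log2 of the CPE over the reference signal after background correction and loess normalization, given for mouse 1, 2 and 3. A probe passed the threshold at an adjusted p under 0.05 in limma, adjusted over all 25840 probes tested, and a change of at least 2-fold. Of all tested probes, 4462 (17.3%) passed, 1833 (7.09%) as higher and 2629 (10.2%) as lower in CPE. Of the 11 probes of the retinoid genes, 8 passed as lower and 1 as higher. Their median ratio was −3.19, against −0.04 over all tested probes, and each probe had 1 sign on all 3 arrays. At an adjusted p under 0.05 with any size of change, 10 of the 11 probes passed in limma, against 39.2% of all tested. With each array centred on its median in place of loess, the median over all tested probes was 0.09 and 67.0% of the probes past the threshold were higher, against 41.1% with loess. The same change moved the 8 lower probes toward 0 by 0.38 to 0.97 on the log2 scale.

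**Figure D1:**
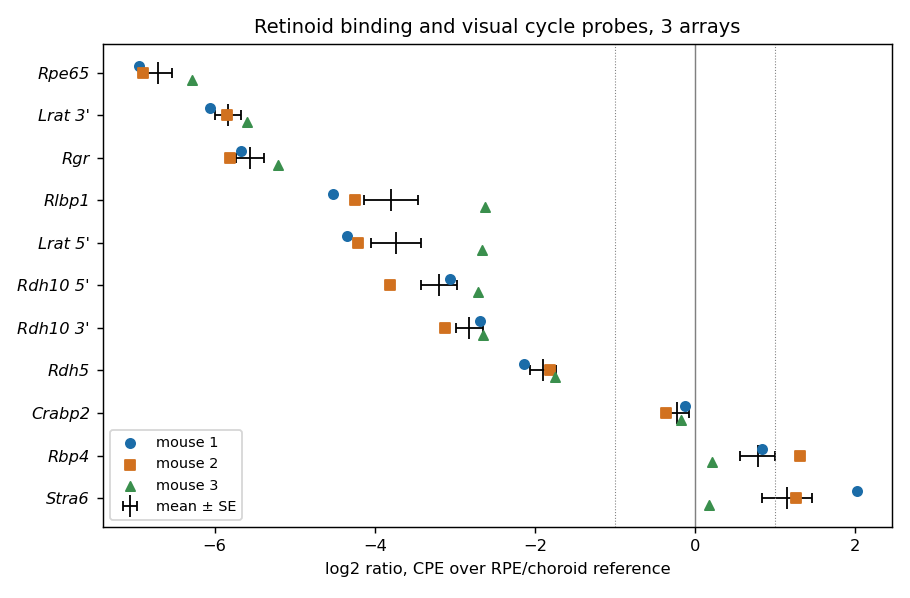
Log2 ratio of CPE over the RPE/choroid reference (x axis) for the 11 probes (y axis, probes of a gene named by their relative position in the transcript), with 1 symbol per mouse, the mean and its SE, and dotted lines at a 2-fold change. Probes from *Rpe65* to *Rdh5* lie left of the lower line on all 3 arrays, *Crabp2* lies near 0, and *Rbp4* and *Stra6* lie right of 0, nearest to it in mouse 3.

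*Rpe65*, *Lrat* and *Rgr* had the lowest ratios of the 9 genes. *Rpe65* (probe at chr3:159550027-159550086 on build mm8, plus strand) had normalized log2 levels in CPE of 7.92, 8.10 and 8.50, against 14.87, 15.00 and 14.78 in the reference on the same arrays. The channels were far apart in all 3 mice, and the spread of the mice was small beside the gap. The ratios were −6.95, −6.90 and −6.28, with a mean of −6.71 (SE 0.18, n = 3; limma, adjusted p = 3.95e-06). Only 3 of the 25840 tested probes had a lower mean ratio.

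The 3′ probe of *Lrat*, the acyltransferase that makes retinyl esters (chr3:82978810-82978869, mm8, minus strand), had CPE levels of 7.82, 8.17 and 8.44 and reference levels of 13.88, 14.02 and 14.04. Its ratios of −6.06, −5.85 and −5.60 had a mean of −5.84 (SE 0.16, n = 3; limma, adjusted p = 3.95e-06), 57.2-fold lower in CPE, and the channels did not overlap. The 5′ probe, 2804 bases away (chr3:82981614-82981673), was also lower, by 13.3-fold, but differed between mice. Its CPE levels were 6.72, 6.93 and 8.52, against 11.06, 11.14 and 11.18 in the reference. Mouse 3 stood above the others in CPE while the reference was alike on the 3 arrays. The ratios were −4.35, −4.21 and −2.66, with a mean of −3.74 (SE 0.32; limma, adjusted p = 0.000125). The ratio of the 3′ probe minus that of the 5′ probe was −1.72, −1.64 and −2.95 on the log2 scale, so both probes placed *Lrat* below the reference in every mouse but gave different sizes.

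*Rgr*, the RPE opsin (chr14:35948883-35948942, mm8, minus strand), had CPE levels of 9.18, 9.11 and 9.42 and reference levels of 14.85, 14.91 and 14.63. The 3 mice lay close together, and all were below every reference value. The mean ratio was −5.56 (−5.67, −5.81 and −5.21; SE 0.17, n = 3; limma, adjusted p = 4.89e-06), which is 47.2-fold lower. *Rlbp1*, the gene of the 11-cis retinoid carrier CRALBP (chr7:79248694-79248753, mm8, minus strand), was 13.9-fold lower. Its CPE levels were 8.46, 8.74 and 9.69, and its reference levels were 12.98, 13.00 and 12.31. Mouse 3 was the highest in CPE and its array the lowest in the reference, and the channels did not overlap. The ratios of −4.53, −4.25 and −2.62 had a mean of −3.80 (SE 0.34; limma, adjusted p = 0.000161), and the mean was −4.39 without mouse 3.

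The dehydrogenase genes *Rdh10* and *Rdh5* were also lower in CPE. *Rdh10*, which starts the synthesis of retinoic acid from retinol, had a 3′ probe (chr1:16117195-16117254, mm8, plus strand) with CPE levels of 11.39, 11.06 and 11.64 and reference levels of 14.08, 14.18 and 14.29. The mean ratio was −2.82 (−2.69, −3.12 and −2.65; SE 0.17, n = 3; limma, adjusted p = 2.7e-05), 7.06-fold lower. Its 5′ probe, 584 bases away (chr1:16116611-16116670), had CPE levels of 10.21, 9.28 and 10.47 and reference levels of 13.27, 13.09 and 13.18. Mouse 2 was the lowest on both probes, and neither probe's channels overlapped. The ratios of the 5′ probe were −3.06, −3.81 and −2.71, with a mean of −3.19 (SE 0.22; limma, adjusted p = 5.4e-05), or 9.16-fold lower.

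*Rdh5*, the 11-cis retinol dehydrogenase (chr10:128316539-128316596, mm8, minus strand), had CPE levels of 13.64, 13.98 and 13.38 and reference levels of 15.78, 15.80 and 15.13. It was lower on all 3 arrays, by 3.74-fold, and the highest CPE value lay below the lowest reference value. The ratios were −2.14, −1.82 and −1.75, with a mean of −1.90 (SE 0.16, n = 3; limma, adjusted p = 0.000124). With median centring in place of loess the mean was −0.93 and the adjusted p in limma 0.0704, so the call was lost.

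*Stra6* was the only one of the 9 genes past the threshold as higher in CPE. *Stra6*, the receptor for retinol-loaded RBP4 (chr9:57950709-57951320, mm8, plus strand, a probe that spans 612 bases of the genome), had CPE levels of 9.95, 8.68 and 9.51 and reference levels of 7.94, 7.42 and 9.34. Mouse 2 was the lowest in CPE, the reference was high on the array of mouse 3, and the channels overlapped across arrays. The ratios were 2.01, 1.26 and 0.17, with a mean of 1.15 (SE 0.31, n = 3; limma, adjusted p = 0.0225), or 2.22-fold higher in CPE. Without mouse 1 the mean was 0.72 and the adjusted p in limma 0.121, so the call rested on that mouse. With the ratio of the scanner software the mean was 1.44 with an adjusted p of 0.0542 in limma.

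*Rbp4*, the plasma retinol carrier (chr19:38181783-38181842, mm8, minus strand), had CPE levels of 8.62, 8.99 and 7.31 and reference levels of 7.78, 7.69 and 7.11. Mouse 3 was the lowest in CPE, below the reference values of the other arrays. The mean ratio of 0.78 (0.83, 1.30 and 0.21; SE 0.22, n = 3; limma, adjusted p = 0.0258) was a 1.72-fold difference and did not reach 2-fold. Without mouse 3 it was 1.07 (limma, adjusted p = 0.00804), and with the scanner software's ratio 1.13 (adjusted p = 0.0469 in limma), both past the threshold. Without mouse 1 it was 0.76 (limma, adjusted p = 0.104) and without mouse 2 it was 0.52 (limma, adjusted p = 0.108), so the value of *Rbp4* depended on which mice entered.

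*Crabp2*, the retinoic acid carrier (chr3:88034687-88034746, mm8, plus strand), was at the floor of the measurement. Its CPE levels were 6.91, 6.65 and 6.90 and its reference levels 7.03, 7.02 and 7.08, and it was well above background in CPE on 1 of 3 arrays and in the reference on all 3. The channels were close together but did not overlap. The mean ratio was −0.22 (−0.13, −0.37 and −0.17; SE 0.15, n = 3; 95% interval −0.58 to 0.13; limma, adjusted p = 0.286). With the scanner software's ratio, in which no offset of 50 is added, the mean was −0.92 (−1.74, −0.70 and −0.31; limma, adjusted p = 0.092), so the size of the ratio depended on the processing.

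In the order of the ratios, taking the brighter probe of each gene, *Rpe65* was lowest, followed by *Lrat*, *Rgr*, *Rlbp1*, *Rdh10*, *Rdh5*, *Crabp2*, *Rbp4* and *Stra6*. Neighbours in this order were compared within arrays, as 8 differences. The difference had 1 sign on all 3 arrays for every pair except *Rlbp1* and *Rdh10* (mean 0.98, from −0.03 to 1.84) and *Rbp4* and *Stra6* (mean 0.37, from −0.04 to 1.18), whose order was therefore within the spread of the mice. *Lrat* and *Rgr* differed by 0.28, with a lowest value of 0.04. CPE levels lay wholly below the reference levels for 9 of the 11 probes, against 21.1% of all tested probes. Among the 9 was *Crabp2*, which lay at the floor and was tested only through its reference signal, so its gap carries little weight. For *Rbp4* and *Stra6* the levels overlapped, and 0 of the 11 probes lay wholly above, against 15.5% of all tested. In either direction, 36.6% of all tested probes did not overlap.

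**Figure D2:**
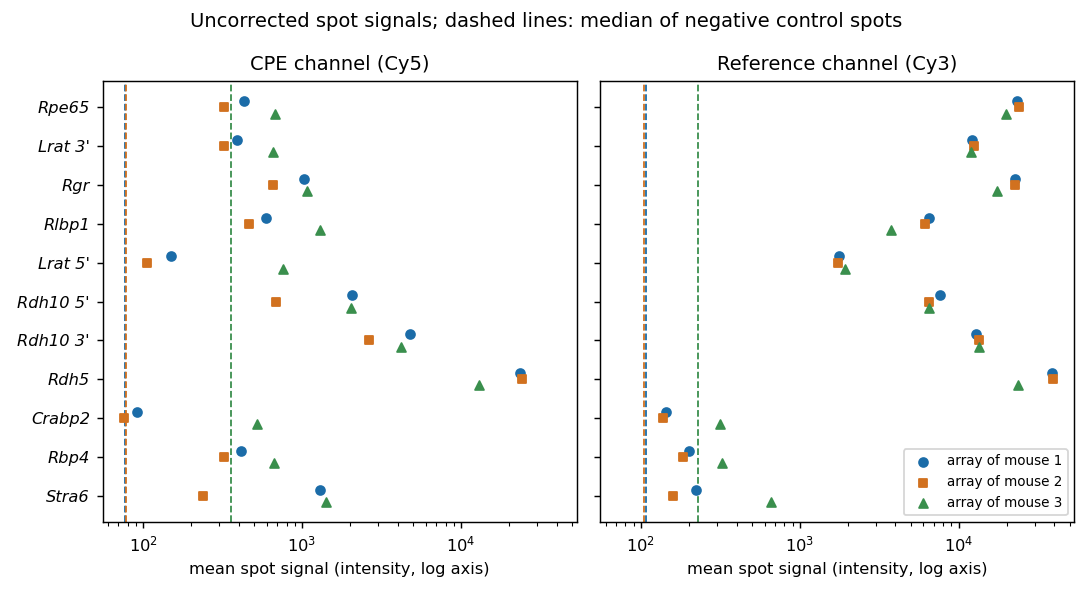
Mean spot signal before background correction (x axis, intensity on a log axis) of the 11 probes (y axis) in the CPE channel (left) and the reference channel (right), with 1 symbol per array and dashed lines at the median of the negative control spots of each array. *Rpe65*, *Rgr*, *Lrat* and *Rlbp1* are bright in the reference and within 1.36 to 13.3 times the line in CPE, and the line of mouse 3 is the highest.

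The genes with the lowest ratios still gave signal in CPE. All 11 probes were well above background in the reference on every array, 10 were so in CPE, and 0 of their spots were saturated. The signal of *Rpe65* before correction was 430, 321 and 678 in CPE, or 5.55, 4.11 and 1.90 times the median of the negative control spots, against 23318, 24016 and 19954 in the reference. The signal over that median was 1.51%, 1.01% and 1.61% of the reference signal. The probes at least as bright as *Rpe65* in the reference and not saturated there numbered 90, 80 and 89, with *Rpe65* itself counted. Of these, 4, 2 and 2 had a smaller percentage on the same array. The smallest were 0.344% (*Tyrp1*), 0.323% (*4930583H14Rik*) and 0.00585% (*Tyrp1*). A few probes as bright in the reference thus had a smaller percentage than *Rpe65*, and most did not. The source of this CPE signal was not tested.

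The deviation of mouse 3 was shared by several of the genes. The ratio after loess lay nearest to 0 in mouse 3 for 10 of the 11 probes, against 48.9% of all tested probes and 60.6% of those past the threshold. This depended on the normalization. With median centring in place of loess, mouse 3 lay furthest from 0 for *Rpe65* (−5.73, −5.88 and −6.35), *Rgr*, *Rdh5* and the 3′ probes of *Lrat* and *Rdh10*. It stayed nearest to 0 for *Rlbp1* (−3.40, −3.36 and −2.68), *Stra6*, *Rbp4* and the 5′ probe of *Lrat*. *Crabp2* lay nearest to 0 in mouse 1 after loess and in mouse 3 with median centring. For *Rlbp1* mouse 3 lay 1.77 above the mean of the other mice on the log2 scale, and for the 5′ probe of *Lrat* 1.62, which are the 99.8 and 99.7 percentiles of this deviation over all tested probes. For *Stra6* it lay 1.47 below (percentile 0.61). This array also had the brightest negative control spots in both channels. With a background surface fitted by the scanner software in place of the local background, the ratio in mouse 3 was −2.57 for *Rlbp1*, −2.59 for the 5′ probe of *Lrat* and 0.20 for *Stra6*, close to the values with the local background.

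Ranked among all 41168 probes of the CPE channel, the genes spanned from low to high expression. A rank above the 90th percentile is high, 50 to 90 moderate, 10 to 50 low and under 10 very low, and a rank does not order different genes by their transcripts. *Rdh5* was at percentile 99.3 (99.2, 99.5 and 99.0 in the 3 mice) and the 3′ probe of *Rdh10* at 95.2 (95.1, 94.2 and 96.0), which are high ranks for probes that were lower than in the reference. The 5′ probe of *Rdh10* was moderate at 87.9 (88.9, 81.8 and 91.1). *Stra6* (80.9), *Rgr* (82.2), *Rlbp1* (78.7), *Rpe65* (71.2) and *Rbp4* (69.0) were moderate. The 3′ and 5′ probes of *Lrat* ranked at 70.4 and 55.0, the latter at 39.3, 38.8 and 73.0 in single mice, and *Crabp2* was low at 20.4. In the reference *Rpe65*, *Rgr*, *Rdh5* and the 3′ probes of *Lrat* and *Rdh10* ranked from 99.5 to 99.9, and *Rbp4* and *Stra6* at 46.0 and 65.8. When the 10 probes well above background in CPE were ranked only among such probes, 5 changed class, among them *Rpe65*, from 71.2 to 35.9, and the 3′ probe of *Rdh10*, from 95.2 to 89.4.

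**Figure D3:**
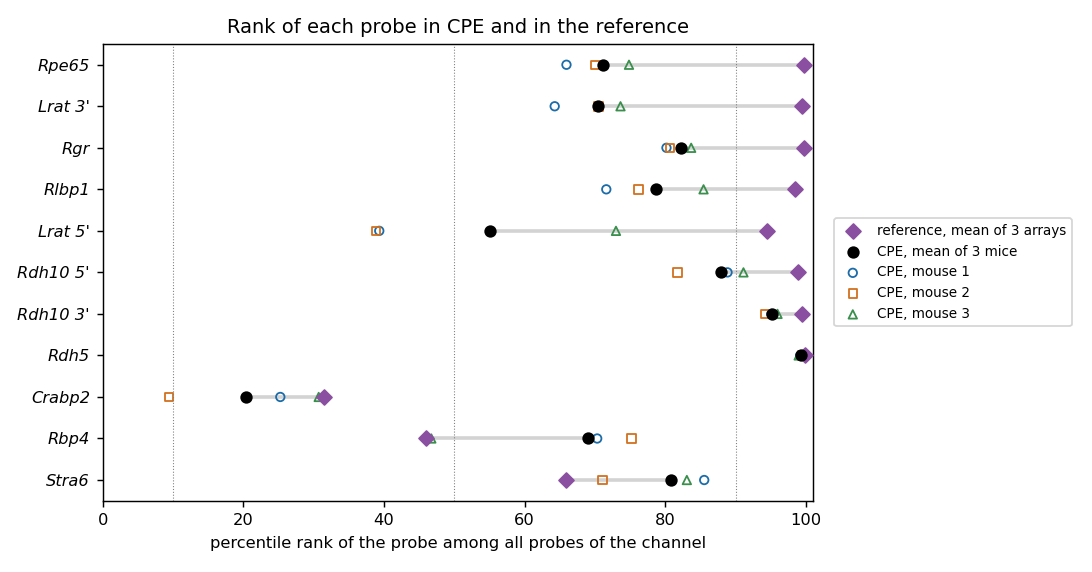
Percentile rank (x axis) of the 11 probes (y axis) in the CPE channel, with open symbols for single mice and black points for their mean, and in the reference channel (diamonds), with dotted lines at the limits of the expression classes. Ranks in CPE run from 20.4 for *Crabp2* to 99.3 for *Rdh5*, and those of the 5′ probe of *Lrat* differ most between mice.

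Other genes of retinoid transport and metabolism were taken by role, with 1 probe per gene. Of 59 listed, 57 were on the array and 47 were tested, of which 3 were higher in CPE, 18 lower and 26 not past the threshold. Their median ratio was −0.50, against 0.01 over 12667 genes with 1 probe each, of which 20.2% were past the threshold. Over all tested probes, 7.09% were higher and 10.2% lower. The 3 higher genes are carriers or binding proteins, but these roles did not rise as a whole. Of 7 carriers and uptake proteins tested 3 were lower, and 3 of 5 cellular binding proteins did not pass the threshold. *Ttr*, the gene of transthyretin, gave ratios of 2.41, 2.96 and 2.61, a bound of at least 6.32-fold higher, since its CPE spots were saturated in every mouse. *Rbp7*, a cellular retinol-binding protein, had ratios of 2.20, 2.42 and 1.10 (mean 1.91, SE 0.26; limma, adjusted p = 0.00111), and was well above background in the reference on 1 of 3 arrays. *Crabp1*, the paralog of *Crabp2*, had a mean of 1.09 (1.28, 1.42 and 0.57; SE 0.20; limma, adjusted p = 0.00462).

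The genes lower in CPE were spread over most roles. In retinoic acid synthesis 4 of 5 were lower, with the retinal dehydrogenases *Aldh1a1* at −3.21, *Aldh1a3* at −2.42 and *Aldh1a2* at −1.85. Of the retinol and retinal dehydrogenases 4 of 12 were lower (*Adh1*, *Adh7*, *Rdh12* and *Rdh11*, from −2.41 to −1.63). Among the opsins, *Rrh*, an opsin of the RPE, was lower at −2.05 and *Opn1mw*, a cone opsin, at −1.78. Of the carriers and uptake proteins 3 of 7 were lower, *Rbp3*, the carrier between retina and RPE, at −3.14, *Lrp2* at −2.96 and *Cd36* at −2.23. The nuclear receptors *Rarb*, at the 2-fold limit, and *Rxrg* (−1.05), the retinoic acid hydroxylase *Cyp26a1* (−1.81) and the esterase *Ces1d* (−1.51) were lower too. In CPE, *Aldh1a3*, *Aldh1a7* and *Adh7* were well above background on 1 of 3 arrays and *Cyp26a1* on 2, so the sizes of their ratios are uncertain. Among probes measured in both channels on all arrays, 14 of the other retinoid genes were lower and 2 higher.

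**Figure D4:**
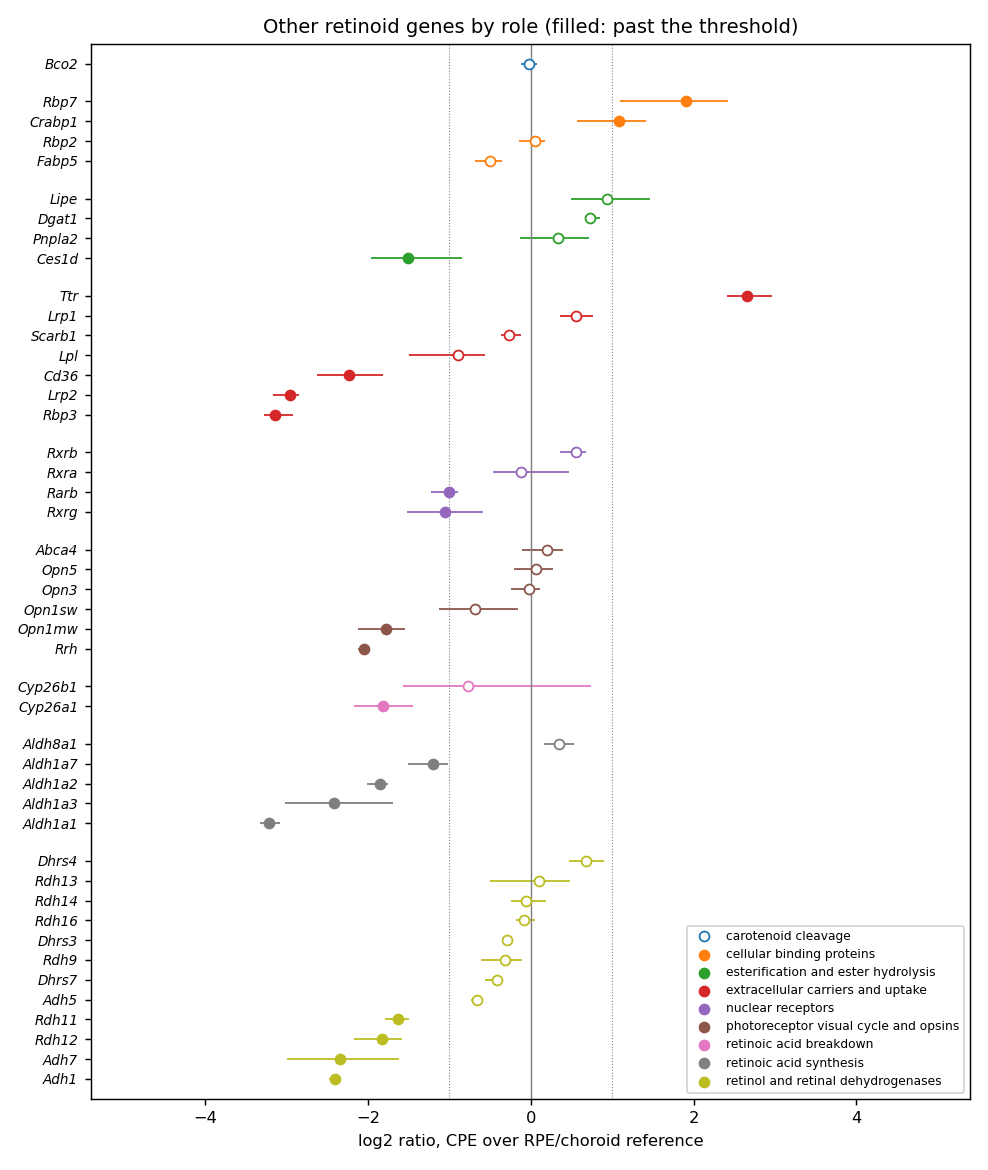
Log2 ratio of CPE over the reference (x axis) for tested genes of other retinoid roles that are reported here (y axis, coloured by role), with points at the mean, filled where past the threshold, lines from the lowest to the highest of the 3 arrays and dotted lines at a 2-fold change. Filled points right of 0 are *Ttr*, *Rbp7* and *Crabp1*, and retinoic acid synthesis and dehydrogenases lie mostly left of 0.

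For each gene the array was searched for the gene whose 3 ratios were most like its own, by root mean square difference over the 3 arrays, among 17323 probes. *Rpe65* was nearest to *Nrl*, at 0.39, and had no probe within 0.2. *Lrat* was nearest to *Dct* (0.12), *Rgr* to *Gsto1* (0.16) and *Rlbp1* to *Prom1* (0.23), with at most 1 probe within 0.2. The reference spots of *Dct* were saturated on all 3 arrays, so its ratio is a bound and its distance to *Lrat* is uncertain. *Rdh10* was nearest to a probe of *Lyz2* (0.066), with 8 probes within 0.2, and *Stra6* to *Nectin2* (0.084), with 11. The brightest probe of *Lyz2* is another one, with a mean ratio of −3.40 against −2.82 for *Rdh10*. *Rdh5*, *Rbp4* and *Crabp2* had 66, 219 and 1191 probes within 0.2 and were nearest to *Ptgr1*, *Dgkq* and *Tk2*.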

How the data were processed

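Agilent whole-genome mouse arrays of 3 CPE samples were analysed as 1 group. The scanner tables, which the authors deposited as written by Agilent Feature Extraction 9.5.3.1, hold the intensity of each spot in both channels, its local background and flags. Per the file headers they also hold the log10 ratio of the processed signals. A table of log2 values deposited by the authors, normalized with Aquantile, was used as an alternative for the ranks, which follow the study's methods, and its rank correlation with the CPE level was 0.998 to 0.999 on the arrays.

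Intensities were corrected with normexp (offset 50) and normalized by loess within arrays in limma 3.58.1 (R 4.3.3), with control and outlier spots left out and spots of a probe averaged. Levels were also normalized between arrays with Aquantile. A probe was tested against 0 if 1 channel or both were well above background on every array, with Benjamini-Hochberg adjustment. The fit was checked on simulated data. Where every spot of a channel was saturated, or none was well above background, a fold is a bound set against the lowest signal well above background. The number of arrays limits the precision. All 9 genes were named with every probe, the brightest probe stood for a gene, and listed genes past the threshold could be named. The genes and lists were chosen with earlier results of these data known. Probe coordinates are those of the scanner tables (mm8), for which no annotation was used here. A few listed genes are not reported here by name. Alternatives covered background, normalization, filters, test, array weights and each mouse left out.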

Additional observations from a re-analysis of the deposited data

How the results depend on the processing

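The 8 probes lower in CPE held their call under all alternatives except *Rdh5* under median centring, and the count of lower probes of the 9 genes was 7 there and 8 elsewhere. Of the ratio values of these genes under alternatives, 114 kept direction and side of the threshold, 4 lost the call (*Rdh5* once and *Stra6* 3 times), 2 gained it (*Rbp4*), and 0 changed sign. The count of higher probes was 0 with limma's treat against a 2-fold change, where 0 had an unadjusted p under 0.05, and ran from 0 to 2 with 1 mouse left out. Without mouse 1 it was 0, where 2 had an unadjusted p under 0.05 in limma.

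Over all probes, the number higher in CPE was 3744 with median centring, 2849 with the scanner software's ratio and 455 under treat, and the number lower was 958 under treat. Of the other retinoid genes, 8 were higher with median centring and 1 under treat. The background surface, chosen after the data were seen, changed no call of the 9 genes. The cause of these shifts was not tested. No paired analysis was possible because the samples form 1 group, with no second group to share replicate numbers. CPE and reference were compared within each array. The signal over background limits *Crabp2* and the 5′ probe of *Lrat*. The CPE signals of the latter were 1.93 and 1.36 times the negative control median in mouse 1 and 2. In mouse 3, *Rpe65* and the 3′ probe of *Lrat* were also near that median, at 1.90 and 1.84 times. With the scanner software's ratio the mean of *Rpe65* was −7.12. The signal over background also limits the ratios of *Rbp4* and *Stra6*, which were dim in the reference. Their reference signals on the arrays of mouse 1, 2 and 3 were 1.86, 1.75 and 1.42 times the negative control median of that channel for *Rbp4*. For *Stra6* they were 2.08, 1.51 and 2.89 times that median.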
